A study of Mus musculus with 15 samples.

Results

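The comparison described here set the uterus of ovariectomized CD-1 mice 2 h after an injection of estriol against the uterus of mice that received vehicle. Its members were the 3 arrays titled E3 2h and the 3 arrays titled V, chosen by those titles, 6 of the 15 arrays of the study. CD-1 is an outbred mouse stock, and removal of the ovaries takes away the main source of circulating oestrogen. The estriol mice were given 250 ng of the hormone dissolved in 100 µl of saline, and the vehicle mice 100 µl of saline alone. The 9 other arrays held estriol at 24 h and estradiol, at the same dose, at 2 h and at 24 h, with 3 arrays in each group. All 15 arrays shared the ovariectomy, the stock and the tissue. The labels write E2 and E3, which are read here as estradiol and estriol. The age of the mice, the time between ovariectomy and injection, the route of injection and the time at which the vehicle uteri were taken are not stated in the sources used here. Nothing there says that the 3 arrays of a group came from separate mice, so a p-value here weighs a difference against the spread between arrays alone, and that spread may be technical. Whole uterus was crushed before RNA was extracted, so for every gene fewer cells of a type and less RNA per cell cannot be told apart.

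Oestrogens bind the nuclear receptor encoded by Esr1, which is present in the epithelium, stroma and smooth muscle of the mouse uterus and acts on DNA directly and through other transcription factors such as AP-1. In the ovariectomized uterus an injected oestrogen first brings a burst of early transcription factors and a swelling of the stroma with fluid, and only later a round of DNA synthesis in the epithelium. Estriol is a metabolite of estradiol with an additional hydroxyl group on its D ring, and is known as a short-acting oestrogen.

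Each array was a 1-colour Agilent 44K design with 43379 spots outside the control features. The signal at the 75th percentile, which was used as the scale of an array, was 1800, 1715 and 1373 on vehicle arrays 1 to 3 and 1604, 1854 and 1490 on estriol arrays 1 to 3. Spots well above background made up 72.2% to 80.3% on the vehicle arrays and 73.5% to 75.2% on the estriol arrays. Pearson correlations across probes ran from 0.987 to 0.990 among the vehicle arrays, from 0.987 to 0.991 among the estriol arrays and from 0.947 to 0.956 between the groups. All 3 vehicle arrays lay on 1 slide that held no other group's array, so slide and group largely cannot be told apart. Estriol array 1 lay on another slide and was scanned on another day than estriol arrays 2 and 3. The defining markers of epithelium, stroma, smooth muscle and endothelium were well above background on all 6 arrays.

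A level is the log2 signal of a probe minus the 75th percentile of its array, and a difference is the mean level with estriol minus the mean with vehicle, so a difference of 1 is a 2-fold change. Differences were tested with limma over all 30295 probes that were well above background on all 3 arrays of a group, with Benjamini-Hochberg adjustment. The spread was estimated from all 15 arrays in 5 groups, so an SE can differ from what the 6 printed values show. The words rose and fell are used only for an adjusted p under 0.05. A gene is represented by its probe of highest mean level. By that rule 3348 of 19934 genes rose (16.8%) and 4785 fell (24.0%), 8133 in all (40.8%). Changes of at least 2-fold were found for 1231 rising genes (6.18%) and 2174 falling genes (10.9%), or for 1925 rising (6.35%) and 3172 falling (10.5%) probes. Over probes the counts were 5249 higher (17.3%) and 6979 lower (23.0%), 12228 in all (40.4%), and the median difference was -0.13. The balance of rises and falls depends on the scale. With the median of each array in place of the 75th percentile, 7750 probes rose and 4305 fell, so that 64.3% of the called probes were higher in place of 42.9%, and the median difference was 0.10. Quantile normalization gave 6021 rises and 5968 falls, 50.2% higher. A gene list is therefore described by its counts and, in brackets, their share of the members tested, to be read against the 16.8% and 24.0% of all genes. Another scale, or an array left out, is named beside a list where it moved a count by over 1.5 times and by more than 1 member. A dagger marks a gene whose call was lost on the median scale, after quantile normalization or without 1 of the 6 arrays. A double dagger marks a called gene with a further tested probe that was not called or was called the other way. The summed level of a marker list is the log2 of the sum of its members' levels before the log. Every member on the array enters by its brightest probe, whether tested or not, so the brightest members weigh most. Groups said to be apart or not to overlap are to be read against all genes. All 3 estriol arrays lay above all 3 vehicle arrays for 4330 genes (21.7%) and below them for 6873 (34.5%). No test of a list as a whole was made.

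**Figure D1:**
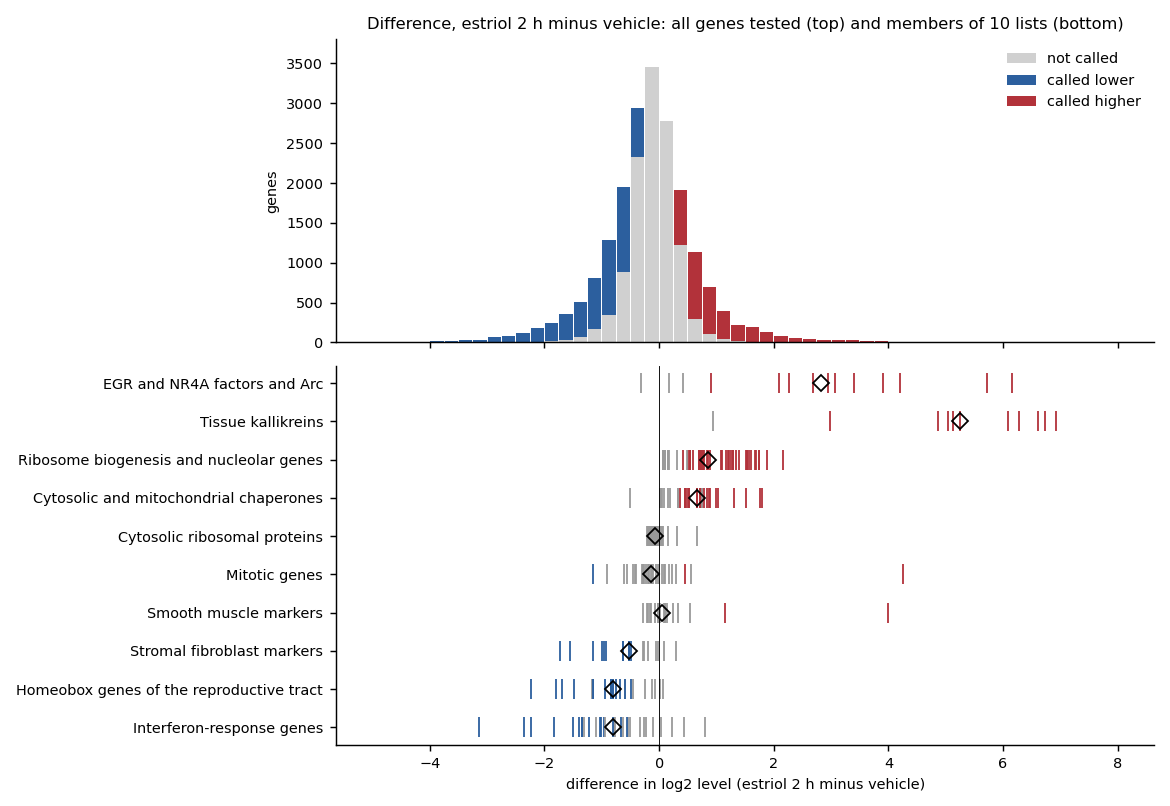
Differences in log2 level, estriol 2 h minus vehicle, on the horizontal axis: number of genes per bin of 0.25 for all 19934 genes tested (top; values past the axis are drawn in its outermost bins) and the members of 10 lists (bottom; 1 mark per gene, red called higher, blue called lower, grey not called, diamonds for the list medians). The kallikreins, the EGR and NR4A factors, the ribosome biogenesis genes and the chaperones lie to the right of 0, the ribosomal proteins and smooth muscle markers lie around 0, and the homeobox and interferon-response genes lie to the left.

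The 20 largest rises were those of proteases, keratins, early transcription factors, a water channel and others. Trim15, a tripartite motif protein, was at -7.78, -8.60 and -8.18 on the vehicle arrays and 0.52, 0.64 and 1.19 on the estriol arrays. It was not well above background on any vehicle array, so its rise is given as a bound, at least 257-fold. Such a bound sets the mean of the brighter group against a floor on each array of the dimmer group. The floor is the lowest signal of any probe that counted as well above background, or the probe's own signal where higher. The limit of a given probe may lie above that floor, so such a bound is not strict. Otop1, a proton channel, rose at least 13.4-fold by the same reckoning. Gdf15, a stress-induced member of the TGF-beta family, was at -2.73, -2.83 and -1.91 on the vehicle arrays and 4.15, 4.23 and 4.44 on the estriol arrays, a difference of 6.77 (SE 0.31, adjusted p = 5.43e-08). Dok7 (5.46), an adaptor of the muscle receptor kinase MuSK, Csrnp3 (5.66), a nuclear protein, Myh7 (5.64), a myosin heavy chain, and Rem2 (5.73), a small GTPase, were among the other large rises. Myh7 varied widely, at -2.81, -6.68 and -5.93 on the vehicle arrays, and Rem2 was well above background on 2 of the 3 vehicle arrays. Among the 20 largest falls were signals that act on neighbouring cells. They included Hgf (-3.81), the ligand of the Met receptor, Ndp (-3.68), a ligand of the receptor Fzd4, and Fgf20 (-3.69), a fibroblast growth factor. Msc (-3.47), a basic helix-loop-helix repressor, Zfp750 (-3.66), a factor of epidermal differentiation, Edar (-3.33), the ectodysplasin receptor, and Cyp1b1 (-3.37), an enzyme that hydroxylates oestrogens, also fell. Bmf, Ptgfr, Cldn1 and Cxcl11, described further on, were also among the 20. Further large falls that were measured were Hcar1 (-4.41), Npy2r (-3.59), Mmp12 (-4.04†), Csprs (-3.63), Pabpc4l (-3.48), Slco4c1 (-3.29) and Rnf186 (-3.27). Of these Hcar1, Mmp12 and Npy2r were well above background on 2 of the 3 estriol arrays, and Fgf20, Zfp750 and Csprs on 1 of 3. Slc38a11, an amino acid transporter relative, fell at least 9.08-fold and Lrrtm1, a synaptic adhesion protein, at least 4.02-fold, neither being well above background on any estriol array.

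Of 10 steroid receptors tested 1 (10%) rose and 3 (30%) fell. Falling members numbered 1 on the median scale and without vehicle array 2 or estriol array 2, in place of 3. The transcript of the progesterone receptor rose while that of the membrane receptor Gper1 fell. Pgr was at -1.85, -2.30 and -1.98 on the vehicle arrays and -0.42, -0.02 and -0.21 on the estriol arrays, a difference of 1.82 (SE 0.33, adjusted p = 0.000806), and a second probe of Pgr gave 4.11. Gper1 was at 0.24, -0.11 and 0.33 on the vehicle arrays and -1.25, -2.26 and -2.01 on the estriol arrays, a difference of -2.0 (SE 0.29, adjusted p = 0.000171), so the groups were apart in both cases. Esr1 itself was at 2.83, 2.92 and 2.86 on the vehicle arrays and 2.31, 2.58 and 2.73 on the estriol arrays, a difference of -0.33 (SE 0.11, adjusted p = 0.0302, not called on the median scale or without vehicle array 1, 2 or 3 or estriol array 1 or 2), while another probe gave -0.04. Pgrmc1 (-0.43†), a haem-binding membrane protein, fell, and Nr3c1 (-0.51, with another probe called at -0.56) and Esrra (-0.11, with another probe called at -0.78) were not called. Esr2 was not tested, because no probe of it was well above background in all arrays of a group. Of the 21 coregulators tested 6 (28.6%) rose and 3 (14.3%) fell. Greb1, an oestrogen-induced partner of the receptor, went from -1.20, -0.54 and -0.62 to 2.49, 3.18 and 3.13, a rise of 13.2-fold. The corepressor Nrip1 (2.47) rose. Cited2, a coactivator of AP-2 that competes with HIF1A for CBP and p300, was at 1.16, 1.40 and 1.89 on the vehicle arrays and -0.88, -0.91 and -1.15 on the estriol arrays, a difference of -2.47 (SE 0.19, adjusted p = 1.29e-06). Ppargc1a (-2.35), a coactivator of mitochondrial genes, fell, and the classical coactivators Ncoa1 (-0.01), Ncoa2 (-0.34, with another probe called at -0.63) and Ncoa3 (0.36) were not called.

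All 20 genes of a list of textbook early oestrogen-induced uterine genes rose, with a median difference of 3.08; the list was written with results of these data known and is no independent evidence of their direction. The list ranged from Jun, at 2.04, 2.18 and 2.10 on the vehicle arrays and 3.28, 3.00 and 2.99 on the estriol arrays, to Inhbb, the beta-B subunit of activin, at 0.69, 1.43 and 1.63 on the vehicle arrays and 6.62, 6.67 and 6.74 on the estriol arrays. The other receptor-linked and secreted members were Ramp3 (4.26), a partner of the adrenomedullin receptor, Wnt4 (3.09), Vegfa (2.40), Adm (1.73) and Igf1 (1.47). Other probes of Igf1 gave differences from 1.66 to 3.21. Cdkn1a (3.29), a cyclin-dependent kinase inhibitor, Gadd45g (4.71), Ckb (1.18), the brain creatine kinase long used as an oestrogen marker, Odc1 (1.09) and Myc (1.01) completed the growth-related members.

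The AP-1 subunits, which pair through leucine zippers and bind the site TGANTCA, moved mainly upwards: 12 (63.2%) of 19 members rose and 3 (15.8%) fell, against 16.8% and 24.0% of all genes. Fos was at -2.80, -1.69 and -3.23 on the vehicle arrays and 3.1, 2.63 and 2.24 on the estriol arrays, a difference of 5.23 (SE 0.41, adjusted p = 1.87e-06). Fosb was at -5.48, -5.49 and -5.44 on the vehicle arrays and -0.73, -1.40 and -1.45 on the estriol arrays, a difference of 4.27 (SE 0.24, adjusted p = 1.52e-07). The vehicle and estriol arrays of both genes were far apart. Fosl1 (5.43), which was well above background on 2 of the 3 vehicle arrays, Atf3 (3.84), Maff (3.16) and Junb (2.86) followed, and Fosl2 (2.69), Jdp2 (2.49), Jund (1.93), Mafk (1.14), Jun (0.98) and Batf (0.87) also rose. Members that went the other way included Maf (-0.88‡) and Atf7 (-0.58‡).

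The EGR zinc-finger factors and the NR4A orphan receptors are copied within minutes of many stimuli, and 11 (78.6%) of the 14 tested members of their list rose and none fell. Arc, best known as a synaptic immediate-early gene, was at -3.20, -3.09 and -3.02 on the vehicle arrays and 2.81, 3.27 and 3.09 on the estriol arrays, a difference of 6.16 (SE 0.31, adjusted p = 9.87e-08). Egr4 was at -5.78, -5.21 and -5.75 on the vehicle arrays and 0.86, -0.10 and -0.35 on the estriol arrays, a difference of 5.71 (SE 0.44, adjusted p = 1.47e-06). Nr4a1, an orphan nuclear receptor, was at 1.97, 2.39 and 1.99 on the vehicle arrays and 6.43, 6.51 and 6.01 on the estriol arrays, a difference of 4.20 (SE 0.22, adjusted p = 1.05e-07). All 3 rose with no overlap between the groups. Egr3 (3.90), Egr1 (3.07), Nr4a2 (2.95) and Egr2 (2.09) rose as well, together with Ier3 (3.41) and Ier2 (2.69‡), and so did Nab2 (2.26), a corepressor that binds EGR proteins. Its relative Nab1 (-0.31) was not called. Npas4 (0.41) and Ier5l (0.18, with another probe called at 0.58) were not called either.

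**Figure D2:**
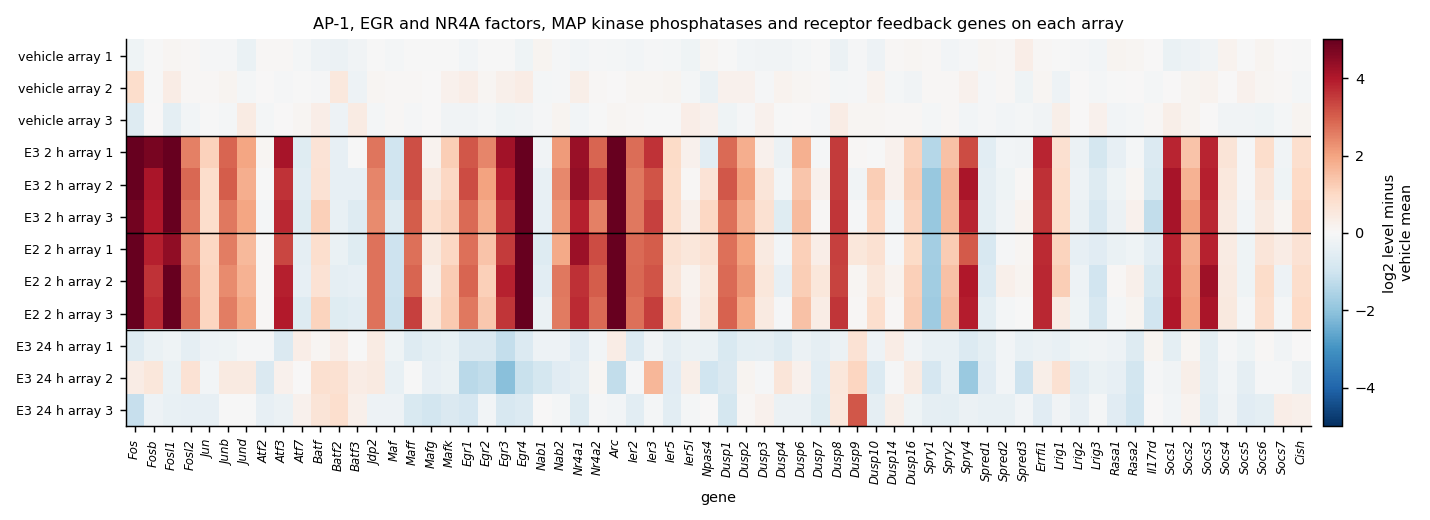
Level minus the vehicle mean (log2, colour, capped at 5 in either direction) of tested AP-1, EGR and NR4A factors, MAP kinase phosphatases and receptor feedback genes, on each array of vehicle, estriol 2 h, estradiol 2 h and estriol 24 h. The rising genes, such as Arc, Egr4, Fos and Socs1, are red on all 3 estriol 2 h arrays and on the estradiol 2 h arrays, and pale again on the estriol 24 h arrays.

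The stretches of DNA just before these genes' start sites were read from the RefSeq promoter table of build GRCm38.p6, which gave a window of 250 bases for 12319 of the tested genes. The windows of 3 early rising genes are printed because they hold sites named after factors of this response: the CArG box, bound by the serum response factor, in Egr2, and TGACGTCA, the palindrome bound by CREB and ATF proteins, in Dusp1 and Maff. Capitals mark the match and the windows run 5′ to 3′ toward the start of transcription, with the gene's strand given after the coordinates.
Egr2 (chr10:67537316-67537565, plus strand, match 72 bases before the start): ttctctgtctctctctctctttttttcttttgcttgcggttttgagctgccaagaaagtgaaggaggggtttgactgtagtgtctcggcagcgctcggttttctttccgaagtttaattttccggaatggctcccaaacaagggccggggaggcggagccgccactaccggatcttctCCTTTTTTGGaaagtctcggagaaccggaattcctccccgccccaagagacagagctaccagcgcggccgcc
Dusp1 (chr17:26508473-26508722, minus strand, match 143 bases before the start): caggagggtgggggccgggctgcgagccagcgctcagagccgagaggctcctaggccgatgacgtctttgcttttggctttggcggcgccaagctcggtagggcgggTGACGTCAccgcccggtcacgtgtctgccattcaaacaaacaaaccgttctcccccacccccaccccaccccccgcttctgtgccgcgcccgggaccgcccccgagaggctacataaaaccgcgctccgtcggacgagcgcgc
Maff (chr15:79347270-79347519, plus strand, match 29 bases before the start): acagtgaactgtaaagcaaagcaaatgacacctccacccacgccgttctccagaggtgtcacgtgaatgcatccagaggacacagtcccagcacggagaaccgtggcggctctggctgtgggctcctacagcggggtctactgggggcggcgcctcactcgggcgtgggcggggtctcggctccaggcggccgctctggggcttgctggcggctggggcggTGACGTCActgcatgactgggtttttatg
Egr2 was at -0.12, 0.04 and -0.16 on the vehicle arrays and 2.34, 1.94 and 1.73 on the estriol arrays, Dusp1 at -0.38, -0.16 and -0.58 on the vehicle arrays and 2.47, 2.73 and 2.38 on the estriol arrays and Maff at -0.14, -0.10 and -0.19 on the vehicle arrays and 3.09, 3.08 and 2.89 on the estriol arrays. All 3 genes were higher on each estriol array than on any vehicle array. Motifs were searched on both strands of each window and a match is a description, not a bound site. The CArG box was in the window of 1.5% of all tested genes with one, in 5 of 14 genes of the SRF list (35.7%) and in 1 of 11 of the EGR and NR4A list (9.09%). Egr2 has 5 windows in the table, 4 of them with the match, and Maff has 3, 1 of them with the match; a gene counts where any window of it holds a match. TGACGTCA was in 2.79% of all tested genes, in 4.58% of the genes that rose at least 2-fold and in 0.937% of those that fell at least 2-fold. The E-box CACGTG was in 9.22% of all tested genes, in 102 of 807 genes that rose at least 2-fold (12.6%) and in 63 of 961 that fell at least 2-fold (6.56%). The AP-1 site TGANTCA was in 6.02% of all tested genes and in 5.45% and 7.6% of the same classes. The palindromic oestrogen response element, GGTCA and TGACC with any 3 bases between them, was in the windows of 3 tested genes (0.0244%) and in none of those that changed at least 2-fold in either direction. TGACGTCA and CACGTG both hold the letters ACGT.

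Other early factors moved in smaller groups. Of the serum response factor and its actin-related targets, 9 (56.2%) of 16 rose and 2 (12.5%) fell. Srf was at 2.58, 2.61 and 2.81 on the vehicle arrays and 4.68, 4.72 and 4.75 on the estriol arrays, a difference of 2.05 (SE 0.13, adjusted p = 3.73e-07). Fhl2 (1.41), a LIM-domain coregulator, Actg1 (1.33), a cytoplasmic actin, and Tpm4 (0.81), a tropomyosin, rose, while the coactivator Mrtfa (-0.46†) and the ternary complex factor Elk3 (-0.44†) fell. Falls numbered 0 on the median scale and without estriol array 3, in place of 2. Of the Kruppel-like factors 4 (25%) rose and 4 (25%) fell out of 16. Klf4 (2.29), Klf16 (1.54) and Klf10 (1.31) were the largest rises. Klf15, which restrains oestrogen-driven epithelial growth in the mouse uterus, was at 1.67, 2.36 and 1.5 on the vehicle arrays and 0.16, -0.35 and -0.66 on the estriol arrays, a difference of -2.13 (SE 0.24, adjusted p = 2.76e-05). Klf1 (-1.42) and Klf12 (-0.78‡) fell as well.

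The C/EBP and ATF factors rose in 12 (57.1%) of 21 cases and fell in 7 (33.3%). Cebpb, which is needed for uterine responses to ovarian steroids, was at 2.56, 2.73 and 2.99 on the vehicle arrays and 6.21, 6.16 and 6.07 on the estriol arrays, a difference of 3.39 (SE 0.22, adjusted p = 4.26e-07). Its family members Cebpd (1.92) and Cebpa (1.67) rose, as did Nfil3 (2.80), a repressor at D-box sites, and Atf4 (2.32), a factor of the amino acid response. The D-box activators Dbp (-1.16) and Hlf (-0.94) and the cell-death factor Ddit3 (-0.50†) fell. Members lower numbered 2 on the median scale, 3 without vehicle array 3 and 4 without estriol array 1, in place of 7. In the Myc network 5 (38.5%) of 13 members rose and 4 (30.8%) fell. Myc (1.01) and Mycl (1.14) rose, as did Mlxipl (1.79), a glucose-responsive partner of MLX, and the MXD repressors Mxd4 (-1.25‡), Mxi1 (-0.99) and Mxd1 (-0.53†‡) fell. Members that fell came to 2 on the median scale, in place of 4. The dimerization partner Max (-0.29) was not called, and the probes of Mlx (0.59‡) disagreed, the other giving -0.83.

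Among SOX, GATA and forkhead factors 6 (26.1%) of 23 rose and 7 (30.4%) fell. Sox9 was at -1.05, -1.30 and -1.19 on the vehicle arrays and 0.81, 1.5 and 1.74 on the estriol arrays, a difference of 2.54 (SE 0.34, adjusted p = 8.99e-05), and Sox4 at 2.02, 2.01 and 2.60 on the vehicle arrays and -0.55, 0.06 and -0.07 on the estriol arrays, a difference of -2.40 (SE 0.25, adjusted p = 1.47e-05). The 2 factors thus moved in opposite directions with no overlap. Foxc2 (1.80) and Foxf1 (1.35), the latter above background on 2 of the 3 vehicle arrays, rose and Foxp1 (-0.87) and Sox17 (-0.69) fell. The lower value of Sox11 (-2.41‡) came from 1 probe, while its other probes gave 0.90 to 1.94; for Foxo3 (-1.90‡) the other probe gave 0.29. Of the NF-kappaB genes 6 (35.3%) of 17 rose, with Bcl3 (1.80), Nfkbia (0.94) and Rela (0.86) the largest, and 4 (23.5%) fell, with the ubiquitin-editing inhibitors Cyld (-0.96‡) and Tnfaip3 (-0.77) among them. Nfkb1 (-0.32, with other probes called at -0.75 and -0.60) and Nfkb2 (-0.05) were not called.

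Of the MAP kinase phosphatases, which remove the activating phosphates from ERK, JNK and p38, 7 (63.6%) of 11 rose and none fell. Dusp8 was at -2.37, -2.18 and -1.71 on the vehicle arrays and 1.41, 1.41 and 1.51 on the estriol arrays, a difference of 3.53 (SE 0.23, adjusted p = 4.14e-07). Dusp1 (2.90), Dusp2 (1.86), Dusp6 (1.58) and Dusp16 (1.19) rose by 2-fold or more, and Dusp4 (-0.36), Dusp7 (0.07) and Dusp9 (-0.06) were not called. In the list of receptor feedback genes 10 (47.6%) of 21 rose and 4 (19%) fell. The cytokine signal suppressors Socs3, at 2.03, 2.37 and 2.2 on the vehicle arrays and 6.02, 6.10 and 5.97 on the estriol arrays, and Socs1, at 0.43, 0.76 and 1.06 on the vehicle arrays and 4.56, 4.89 and 4.88 on the estriol arrays, rose, with a difference of 3.83 (SE 0.13, adjusted p = 8.34e-09) and a difference of 4.03 (SE 0.16, adjusted p = 2.31e-08) respectively. Errfi1 (3.67), an inhibitor of the EGF receptor, Spry4 (3.72) and Spry2 (1.60‡) rose. Spry1 fell, from 1.96, 1.95 and 1.82 to 0.49, 0.00 and 0.00, as did Lrig3 (-0.79) and Il17rd (-0.90‡). The Sprouty family was thus split, with no overlap of groups for Spry1, Spry2 or Spry4.

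The mRNA decay factors act on the unstable messages of early genes, and 8 (50%) of 16 rose and 1 (6.25%) fell. Tob1 (2.95), Zfp36 (2.58), Btg2 (2.17) and Btg3 (1.42) rose, whereas Btg1 went from 4.83, 4.99 and 4.95 to 4.13, 3.75 and 3.66, a difference of -1.08 (SE 0.13, adjusted p = 4.58e-05). The falling members came to 3 after quantile normalization, in place of 1. Zfp36l1 (-0.24) and Zfp36l2 (0.32) were not called. Inducible kinases rose in 12 (48%) of 25 cases and fell in 3 (12%). Plk2, a polo-like kinase, was at -0.26, -0.34 and -0.29 on the vehicle arrays and 3.95, 4.16 and 4.15 on the estriol arrays, a difference of 4.38 (SE 0.26, adjusted p = 2.14e-07). Plk3 (3.41), Sik1 (3.47), Sgk1 (2.57), which controls sodium channels, Pdk4 (1.91) and Pim3 (1.80) followed. Trib2 (-2.02), a pseudokinase, and Map3k8 (-1.56) fell. Among RGS proteins and small GTPase regulators Rnd1, which loosens actin stress fibres, was at -1.56, -1.31 and -1.76 on the vehicle arrays and 3.60, 3.1 and 3.03 on the estriol arrays, a difference of 4.78 (SE 0.19, adjusted p = 2.63e-08). Rasd1 (4.19), Rhou (2.11) and Rgs16 (1.74) rose. Rgs2, which curbs Gq-coupled receptors, was at 5.75, 5.81 and 5.99 on the vehicle arrays and 3.12, 3.27 and 2.93 on the estriol arrays, a difference of -2.74 (SE 0.23, adjusted p = 2.49e-06). In all 9 (36%) of 25 members of that list rose and 6 (24%) fell. Falls came to 3 on the median scale and without vehicle array 2 or 3 or estriol array 3, in place of 6.

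Among the regulators of PI3 kinase, AKT and mTOR, 10 of 24 were lower (41.7%) and 4 higher (16.7%), a balance that depended on the scale. Rises numbered 7 on the median scale, in place of 4. Falling members numbered 5 on the median scale and 6 without estriol array 2, in place of 10. Pik3ip1 and Sesn1 had the largest falls. Pik3ip1, an inhibitor of PI3 kinase, was at 2.87, 2.74 and 2.77 on the vehicle arrays and 0.54, -0.09 and -0.03 on the estriol arrays, a difference of -2.65 (SE 0.20, adjusted p = 1.37e-06). Sesn1, a sestrin that restrains mTOR, was at 3.66, 3.51 and 3.45 on the vehicle arrays and 1.47, 0.67 and 0.63 on the estriol arrays, a difference of -2.62 (SE 0.24, adjusted p = 5.8e-06). Both sets of arrays were well apart. The regulatory subunit Pik3r1 (-1.69), Sesn3 (-1.30), the adaptor Irs1 (-0.76‡) and Deptor (-0.72†‡) also fell. Akt1 (0.89), Rheb (0.86), Sesn2 (1.17) and Ddit4 (0.75†) rose. Pik3r2 (-0.47†) fell and Pik3r3 (0.17, with another probe called at 0.57) was not called. Txnip, an inhibitor of thioredoxin and of glucose uptake, fell from 5.06, 5.01 and 4.24 to 3.04, 2.69 and 2.77, a difference of -1.94 (SE 0.23, adjusted p = 4.39e-05).

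Growth factor genes moved in both directions. Hbegf, a ligand of the EGF receptor, was at 0.68, 0.55 and 0.72 on the vehicle arrays and 3.88, 3.83 and 3.85 on the estriol arrays, a difference of 3.21 (SE 0.14, adjusted p = 4.39e-08). Nrg1 (1.79‡) rose and Btc (-1.47) and the receptor Erbb3 (-0.90) fell, and Egf (-1.12), Tgfa (0.29) and Egfr (0.53, with other probes called at 0.51 and 1.29) were not called, 2 (15.4%) rises and 2 (15.4%) falls among 13 members. In the insulin-like growth factor list the 2 rises (12.5%) were Igf1 and Igfbp1 (3.90), a binding protein that was well above background on 1 of the 3 vehicle arrays, and the 4 falls (25%) among 16 members were Stc1 (-2.49‡), Igfbp4 (-0.74), Igf2r (-0.71†) and Igfbp3 (-0.49†‡). Falls numbered 2 on the median scale, in place of 4. Igf2 (0.29) and Igf1r (-0.37, with other probes called at -0.72 and -1.93) were not called. Of the FGF, HGF and PDGF genes 5 (22.7%) rose and 7 (31.8%) fell out of 22. The rising members came to 3 without vehicle array 2 or estriol array 2, in place of 5. Hgf, a stromal ligand, was at 0.12, 0.04 and 0.12 on the vehicle arrays and -3.85, -3.31 and -3.99 on the estriol arrays, a difference of -3.81 (SE 0.31, adjusted p = 2.24e-06), and its other probes gave -2.53 to -0.66. The stromal ligands Fgf7 (-1.62) and Fgf10 (-0.88) and the receptor Pdgfra (-0.92‡) fell. Pdgfb (1.60) and Fgfr3 (0.95) rose, and Fgf21‡, not well above background on any vehicle array, rose at least 5.78-fold.

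In the TGF-beta family 10 (35.7%) of 28 members rose and 5 (17.9%) fell. The activin subunits Inhbb and Inhba (1.56) rose, while Inha, whose product turns an activin dimer into an inhibin, was at -1.42, -1.62 and -1.27 on the vehicle arrays and -3.87, -3.57 and -3.50 on the estriol arrays, a difference of -2.21 (SE 0.23, adjusted p = 1.7e-05). The groups did not overlap for any of the 3 subunits. Inha is also in the list of oviduct and ovary markers, of which 4 (50%) of 8 fell, Inha by the most, and whose summed level was 1.05 to 1.34 with vehicle and 0.11 to 0.54 with estriol. The part of such tissue in the Inha value was not tested. Tgfb2 (1.15), the inhibitory Smad7 (0.97) and the corepressor Skil (1.73) rose, the receptor Acvr2b (-1.44) and the decoy receptor Bambi (-1.22) fell, and Tgfb3 (0.03) was not called. Of the BMP list 2 (9.52%) rose and 5 (23.8%) fell out of 21. Rising members numbered 4 on the median scale, in place of 2. The falling members came to 3 on the median scale and without vehicle array 1 or 2 or estriol array 2, in place of 5. Id1 (1.33) rose and Id2 (-1.73) fell, and the ligands Bmp2 (-1.69), needed for decidualization, and Bmp4 (-0.81) fell.

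Wnt signals are exchanged between the uterine epithelium and stroma, and here 15 of 44 members fell (34.1%, against 24.0% of all genes) and 4 rose (9.09%). Members higher numbered 7 after quantile normalization and 8 on the median scale, in place of 4. Wnt4 was at -0.05, 0.06 and 0.58 on the vehicle arrays and 3.18, 3.08 and 3.59 on the estriol arrays, a difference of 3.09 (SE 0.40, adjusted p = 6.83e-05). Wnt9a (2.30) rose, as did Axin2 (1.40), a feedback target of the pathway. The larger falls included receptors and secreted modifiers. Fzd1, a receptor, was at 2.64, 2.78 and 2.79 on the vehicle arrays and 0.10, 0.20 and -0.07 on the estriol arrays, a difference of -2.66 (SE 0.13, adjusted p = 5.45e-08). Rspo3, a ligand that amplifies Wnt signals, was at -1.18, -0.91 and -1.42 on the vehicle arrays and -3.85, -4.13 and -4.39 on the estriol arrays, a difference of -2.95 (SE 0.21, adjusted p = 7.42e-07). Fzd7 (-2.22), Dkk2 (-1.63), Wnt6 (-1.77), Nkd2 (-1.40) and Wnt5a (-0.63†) also fell, and Wnt2 (-0.32) and Wnt2b (0.29) were not called.

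Hedgehog signalling in the uterus runs from Ihh, made by the epithelium, to the receptor Ptch1 and the transcription factor Nr2f2 in the stroma. Of 15 members tested 2 (13.3%) rose and 7 (46.7%) fell. Ihh was at -1.97, -2.28 and -1.40 on the vehicle arrays and -0.02, -0.57 and 0.00 on the estriol arrays, a difference of 1.69 (SE 0.32, adjusted p = 0.0013). Ptch1 was at -1.33, -1.53 and -1.83 on the vehicle arrays and -4.04, -4.44 and -4.56 on the estriol arrays, a difference of -2.78 (SE 0.29, adjusted p = 1.32e-05). Nr2f2 was at 3.34, 3.60 and 3.73 on the vehicle arrays and 1.88, 1.81 and 1.77 on the estriol arrays, a difference of -1.74 (SE 0.15, adjusted p = 4.3e-06), with other probes at -4.13 to -1.88. The 3 genes had no overlap between groups. Dhh (2.09), another ligand, rose. The co-receptors Gas1 (-1.88) and Boc (-1.83) and the stromal factor Hand2 (-1.55), which blocks epithelial growth signals, fell. The signal transducer Smo (-0.28) and the GLI factors Gli1 (-0.11), Gli2 (0.41) and Gli3 (-0.18) were not called, nor were Hhip (0.55) and Cdon (-0.20). Shh was not tested.

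In the Notch list 7 (35%) of 20 members rose and 5 (25%) fell. Among receptors Notch1 (1.03) rose and Notch2 (-0.47†‡) fell, and Notch3 (-0.51) and Notch4 (-0.12) were not called. Among ligands Dll1 (1.38) rose and Jag1 (-1.32) fell. The target Hey1 was at 0.66, 0.62 and 0.55 on the vehicle arrays and 2.83, 2.78 and 2.77 on the estriol arrays, a difference of 2.18 (SE 0.10, adjusted p = 5.45e-08), and Heyl (1.71) and Nrarp (1.54) rose, whereas Hes5 (-1.49) and Hey2 (-1.01) fell and Hes1 (0.80) was not called.

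Homeobox genes that pattern the reproductive tract fell and none rose: 15 of 23 were lower (65.2%), with a median difference of -0.80. Hoxa10, which is needed for implantation and decidualization, was at 3.04, 3.03 and 3.03 on the vehicle arrays and 1.28, 1.20 and 1.22 on the estriol arrays, a difference of -1.80 (SE 0.15, adjusted p = 2.85e-06). Hoxa9 was at 0.96, 1.25 and 1.12 on the vehicle arrays and -1.30, -0.99 and -1.12 on the estriol arrays, a difference of -2.24 (SE 0.19, adjusted p = 2.88e-06). Hoxa11 was at 3.87, 3.00 and 3.40 on the vehicle arrays and 2.35, 2.38 and 2.09 on the estriol arrays, a difference of -1.15 (SE 0.24, adjusted p = 0.0023). In each the lowest vehicle array lay above the highest estriol array. Hoxb4 (-1.49) and the epithelial and stromal factor Msx1 (-1.15) fell too. Of the remaining HOX genes Hoxb6 (-0.85), Hoxd10 (-0.76), Hoxd9 (-0.69) and Hoxd11 (-0.50†) fell, and Hoxc10 (-1.18) was not called; these 5 were named after their values were seen. Hoxa11, Nr2f2 and Hand2 are also markers of the stroma, and the summed level of the 18 stromal markers was 9.25 to 9.44 on the vehicle arrays and 9.09 to 9.15 on the estriol arrays. The part of that shift in the homeobox and Hedgehog values was not tested.

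**Figure D3:**
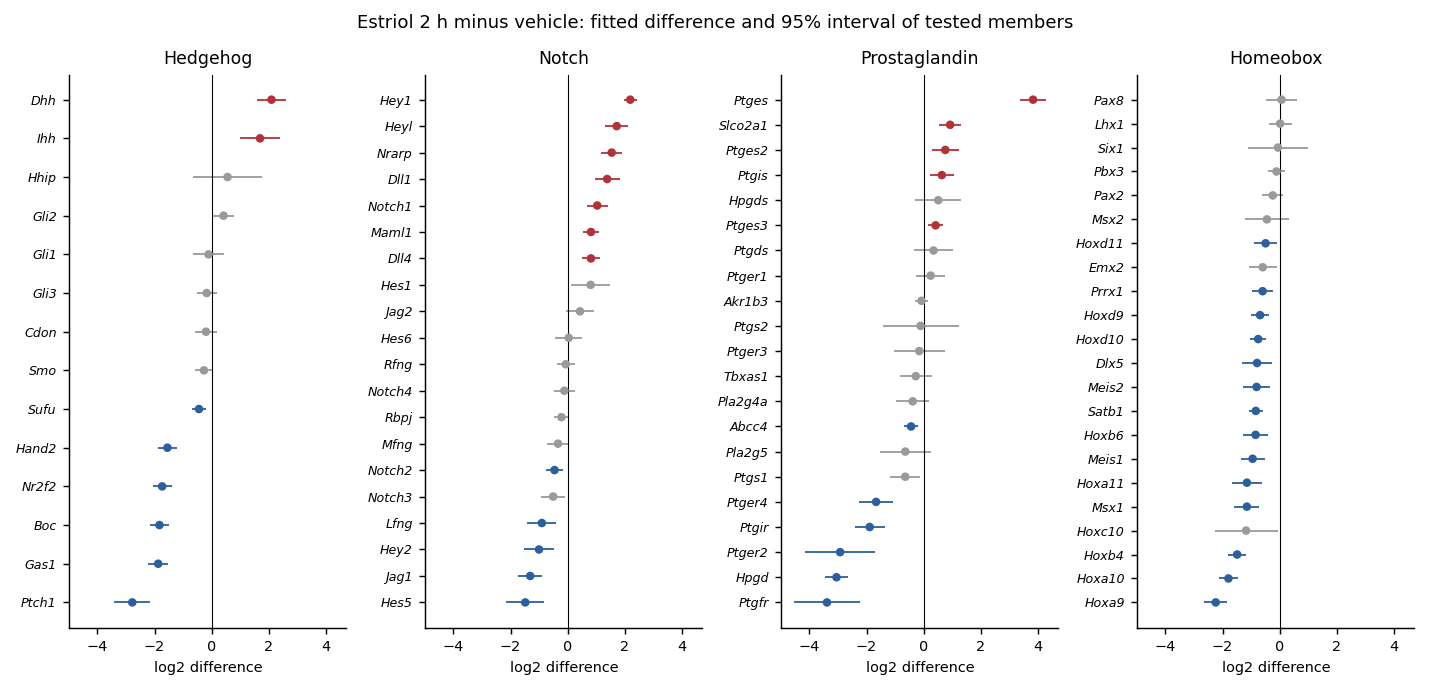
Difference in log2 level, estriol 2 h minus vehicle (points), with its 95% interval (lines), for tested members of the Hedgehog, Notch, prostaglandin and homeobox lists; red members were called higher, blue lower and grey not called. Ihh and Dhh stand at the top of the Hedgehog panel and Ptch1 at its foot, and no homeobox gene was called higher.

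Genes of blood vessels and vascular leak, which bear on the early swelling of the uterus, rose in 11 (33.3%) of 33 cases and fell in 9 (27.3%). Lower members numbered 5 on the median scale, in place of 9. Pgf, placental growth factor, was at -2.16, -2.36 and -1.99 on the vehicle arrays and 2.16, 2.64 and 2.39 on the estriol arrays, a difference of 4.57 (SE 0.24, adjusted p = 1.07e-07). Vegfa was at 1.93, 1.61 and 1.61 on the vehicle arrays and 3.92, 4.35 and 4.06 on the estriol arrays, a difference of 2.40 (SE 0.16, adjusted p = 5.53e-07), and other probes gave 1.81 to 2.78. Ramp3 was at 0.59, 1.17 and 1.47 on the vehicle arrays and 4.98, 5.34 and 5.69 on the estriol arrays, a difference of 4.26 (SE 0.66, adjusted p = 0.000277). These 3 were higher on every estriol array than on any vehicle array. Adm, the peptide that acts through Ramp3, and Apln (2.21) and Nos3 (1.46) rose. The apelin receptor moved the other way, with Aplnr (-2.23). Vegfc (-1.09), Angpt1 (-1.09†‡) and its receptor Tek (-0.88†) fell, as did Vegfb (-0.69†). The probes of Angpt4 disagreed (-0.85 and 2.59). The haemoglobin genes Hba-a1 (0.87†) and Hbb-bt (0.86†), which mark blood in the tissue and whose probes may share transcripts of neighbouring copies, rose, the 5 erythrocyte markers tested having a median of 0.58 and a summed level of 5.0 to 5.63 with vehicle and 5.94 to 6.24 with estriol. The rising members came to 0 after quantile normalization, in place of 2. The part of blood content in the vessel genes was not tested.

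Of 21 genes of prostaglandin synthesis, transport, breakdown and reception 5 (23.8%) rose and 6 (28.6%) fell. Rising members numbered 3 without estriol array 3, in place of 5. Ptges, the inducible prostaglandin E synthase, was at -1.77, -1.21 and -1.72 on the vehicle arrays and 2.01, 2.43 and 2.34 on the estriol arrays, a difference of 3.82 (SE 0.21, adjusted p = 1.35e-07). Hpgd, which inactivates prostaglandins, was at 1.40, 1.60 and 1.23 on the vehicle arrays and -1.33, -1.79 and -1.82 on the estriol arrays, a difference of -3.05 (SE 0.19, adjusted p = 3.8e-07). Ptgfr, the receptor of prostaglandin F2-alpha, was at -0.48, -0.21 and -0.51 on the vehicle arrays and -3.39, -3.22 and -4.75 on the estriol arrays, a difference of -3.39 (SE 0.53, adjusted p = 0.000305). There was no overlap in any of the 3. The E-type receptors Ptger2 (-2.93) and Ptger4 (-1.67) and the prostacyclin receptor Ptgir (-1.89‡) fell, though another probe of Ptgir gave -0.16. The receptors Ptger1 (0.24) and Ptger3 (-0.16) were not called. Neither cyclooxygenase was called: Ptgs1 (-0.65) and Ptgs2 (-0.11). Smaller rises were those of Slco2a1 (0.92), a prostaglandin transporter, and of the synthases Ptges2 (0.75†), Ptgis (0.63†) and Ptges3 (0.41†‡).

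Water channels and ion transporters of the uterine lumen rose in 6 (27.3%) and fell in 5 (22.7%) of 22 cases. Aqp8 was at -4.72, -4.43 and -4.45 on the vehicle arrays and 2.07, 1.82 and 2.12 on the estriol arrays, a difference of 6.53 (SE 0.87, adjusted p = 8.74e-05), and Aqp5 at 0.82, 0.30 and 1.93 on the vehicle arrays and 4.31, 4.87 and 4.96 on the estriol arrays, a difference of 3.70 (SE 0.47, adjusted p = 6.28e-05). Both water channels were higher on every estriol array. The potassium channel Kcnk5 (2.59) and the sodium channel subunits Scnn1a (1.46) and Scnn1g (1.57) rose, while the third subunit Scnn1b (-0.88) fell. The calcium channel Trpv6 (-2.28), Aqp11 (-1.41) and Aqp1 (-0.42†), the water channel of vessels, fell as well, and Aqp3 (0.57) was not called.

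**Figure D4:**
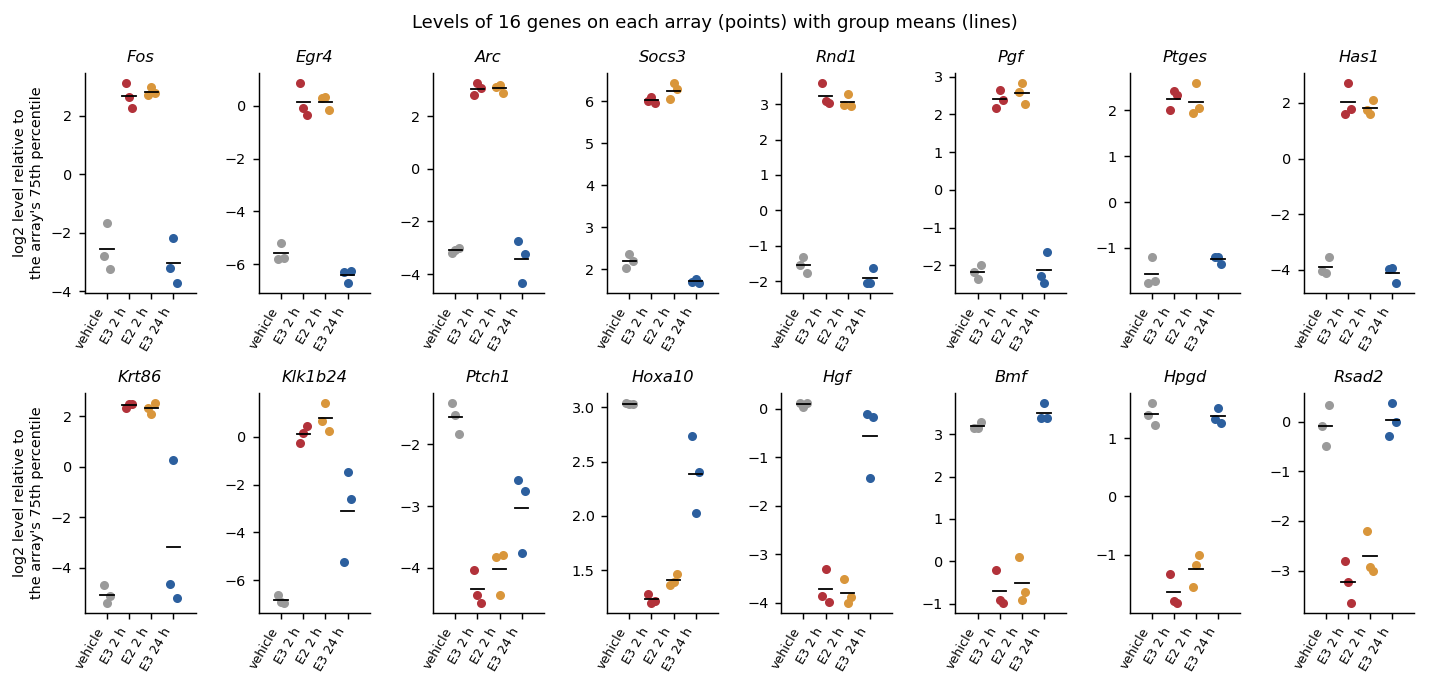
Level (log2, relative to the 75th percentile of the array, vertical axes with separate ranges) of 16 genes on each array of vehicle, estriol (E3) 2 h, estradiol (E2) 2 h and estriol 24 h; points are arrays and lines group means. Fos, Egr4, Arc and the other rising genes are high at 2 h with either hormone, Hoxa10, Hgf, Hpgd and the other falling genes are low, and the estriol 24 h values of most lie back toward the vehicle arrays.

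The hyaluronan synthases were split. Has1 was at -4.06, -4.13 and -3.54 on the vehicle arrays and 1.60, 2.71 and 1.80 on the estriol arrays, a difference of 5.94 (SE 0.30, adjusted p = 1.01e-07), while Has2 was at -0.64, -0.57 and -1.11 on the vehicle arrays and -2.79, -2.57 and -2.78 on the estriol arrays, a difference of -1.94 (SE 0.47, adjusted p = 0.00578), and Has3 (-2.46) fell; no set overlapped. Of the hyaluronan and proteoglycan genes together 5 (20.8%) of 24 rose and 7 (29.2%) fell, the other rises being in Hyal2 (1.21), Sdc4 (1.16‡), Sdc1 (0.93) and Hyal1 (0.61†). Members lower numbered 3 on the median scale, in place of 7. Among matrix proteases and their regulators 10 (35.7%) rose and 10 (35.7%) fell out of 28. Members that fell came to 5 on the median scale, in place of 10. Adamts4, a proteoglycan-cleaving protease, was at -1.80, -1.57 and -1.82 on the vehicle arrays and 2.80, 3.51 and 3.14 on the estriol arrays, a difference of 4.88 (SE 0.32, adjusted p = 4.41e-07). Adamts1 (2.80), Plaur (2.96), the urokinase receptor, Mmp19 (2.16) and Adamts8 (1.76) rose, and the stromal proteases Mmp11 (-1.53) and Adamts5 (-1.23), as well as Mmp10 (-1.47) and the collagen crosslinker Lox (-1.0†), fell. Mmp2 (-0.40†) fell, and Mmp3 (-0.73) and Mmp7 (-0.71) were not called. The fibrillar collagens Col1a1 (-1.0†), Col3a1 (-0.96†) and Col1a2 (-0.63†) fell, whereas Fbln2 (1.77), Lamb1 (1.52) and Col6a3 (1.23) rose, 6 (20.7%) rises and 5 (17.2%) falls among 29 members. Dimmer probes of these fibrillar collagens were called at larger falls, -1.05 and -1.41 for Col1a1, -1.87 and -2.86 for Col3a1 and -2.40 for Col1a2. The falling members came to 2 without estriol array 1, 3 without vehicle array 1 or estriol array 3 and 8 after quantile normalization, in place of 5.

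Of 27 chemokines, which draw in leukocytes, 4 (14.8%) rose and 4 (14.8%) fell, both below the shares of all genes. Falls came to 2 on the median scale and after quantile normalization and without vehicle array 1 or 2 or estriol array 2 or 3, in place of 4. Ccl2, an attractant of monocytes, was at -1.21, -0.95 and -1.80 on the vehicle arrays and 1.39, 1.04 and 1.00 on the estriol arrays, a difference of 2.46 (SE 0.27, adjusted p = 1.87e-05). Ccl7 (2.52) and Ccl12 (2.44), whose transcripts resemble that of Ccl2 so that probes may share them, and the neutrophil attractant Cxcl1 (3.01) rose. Cxcl10, induced by interferons, was at -0.31, -0.76 and -0.29 on the vehicle arrays and -2.88, -2.46 and -3.62 on the estriol arrays, a difference of -2.53 (SE 0.50, adjusted p = 0.00163). Cxcl11, not well above background on any estriol array, fell at least 5.02-fold, and Cxcl13 (-2.86†) and Xcl1 (-1.04†) fell. Ccl3 (-0.34) and Ccl4 (-0.24) were not called. In the cytokine list Tnfrsf12a, the TWEAK receptor, was at -0.42, -0.56 and -0.16 on the vehicle arrays and 4.18, 4.11 and 4.33 on the estriol arrays, a difference of 4.58 (SE 0.29, adjusted p = 4.14e-07). Il11 (3.73) and Il6 (3.29), both of the interleukin-6 family, rose, Il6 being well above background on 1 of the 3 vehicle arrays. Lif was not tested. Tslp (-2.72), Il15 (-2.49), a growth factor of uterine natural killer cells, and Il1rn (-2.22†) fell, 6 (22.2%) rises and 7 (25.9%) falls among 27 members. Lower members numbered 4 without vehicle array 1 or 2 or estriol array 3, in place of 7.

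Interferon-response genes fell without a rise: 15 of 31 were lower (48.4%, against 24.0% of all genes), with a median of -0.80. Rsad2, which encodes the antiviral enzyme viperin, was at -0.08, -0.50 and 0.33 on the vehicle arrays and -2.80, -3.23 and -3.65 on the estriol arrays, a difference of -3.14 (SE 0.29, adjusted p = 5.44e-06). Ifit3 was at 1.47, 0.09 and 1.30 on the vehicle arrays and -0.69, -1.58 and -1.60 on the estriol arrays, a difference of -2.24 (SE 0.52, adjusted p = 0.00454). Iigp1, an interferon-induced GTPase, was at 2.76, 3.22 and 3.05 on the vehicle arrays and 1.45, 0.62 and -0.11 on the estriol arrays, a difference of -2.36 (SE 0.44, adjusted p = 0.00102). In each the groups were apart. Ifit2 (-1.83), Ifit1 (-1.50†) and Mx2 (-1.40) fell as well. The windows before Rsad2 and Ifit3 are printed for the interferon response motif, which is GAAA repeated after any 2 bases and whose matches, all on the reverse strand, are in capitals.
Rsad2 (chr12:26456453-26456702, minus strand, match 120 bases before the start): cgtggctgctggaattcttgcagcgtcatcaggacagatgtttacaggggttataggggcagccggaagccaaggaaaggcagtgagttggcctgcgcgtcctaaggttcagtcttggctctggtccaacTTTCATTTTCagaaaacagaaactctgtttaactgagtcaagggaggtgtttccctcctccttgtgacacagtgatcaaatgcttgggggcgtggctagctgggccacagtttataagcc
Ifit3 (chr19:34583279-34583528, plus strand, matches 156 and 122 bases before the start): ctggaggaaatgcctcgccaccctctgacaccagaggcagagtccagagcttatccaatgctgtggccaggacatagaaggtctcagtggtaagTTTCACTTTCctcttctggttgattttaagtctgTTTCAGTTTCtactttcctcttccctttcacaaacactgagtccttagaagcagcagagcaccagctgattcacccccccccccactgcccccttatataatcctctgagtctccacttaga
The motif was in the windows of 10 of 23 genes of the list (43.5%) and of 393 of the 12319 tested genes (3.19%). It was in 3.95% of the genes that fell at least 2-fold and in 2.97% of those that rose at least 2-fold. Markers of immune cells were called lower on the same arrays at shares near or below the 24.0% of all genes. Of the 18 macrophage markers tested 2 (11.1%) fell, among them Msr1 (-1.60), with a median of -0.44 and a summed level of 6.93 to 7.46 with vehicle and 6.45 to 7.07 with estriol. Adgre1 (-0.43), Csf1r (-0.44) and Cd68 (-0.68) were not called. Of the 20 lymphocyte, natural killer and dendritic cell markers 5 (25%) fell, with a summed level of 2.09 to 2.61 against 1.33 to 1.92. Falling members numbered 0 without vehicle array 2, 1 after quantile normalization and without vehicle array 3, 2 on the median scale and without estriol array 2 or 3 and 3 without vehicle array 1, in place of 5. The eosinophil, neutrophil and mast cell markers had a median of -0.89 over 17 tested, with 1 rise (1.27 for Kit) and 1 fall (-1.78 for Tpsb2), and Epx was well above background on 2 vehicle arrays and on no estriol array. Falls numbered 4 without vehicle array 3 and 5 without estriol array 1, in place of 1. Their summed level overlapped, at 2.71 to 3.90 and 2.19 to 3.53. The part of immune cell content in the chemokine, cytokine and interferon values was not tested. Of 24 complement and antimicrobial genes 2 (8.33%) fell and none rose, and the later oestrogen targets Ltf (-1.56) and C3 (-0.04) were not called. Members lower numbered 0 on the median scale and without vehicle array 2 or 3 or estriol array 3 and 5 after quantile normalization, in place of 2.

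Genes of entry into the cell cycle changed in both directions and few mitotic genes were called. Of the G1 genes 8 (25.8%) of 31 rose and 9 (29%) fell. The rising members came to 13 on the median scale, in place of 8. The falling members came to 2 on the median scale, 4 without vehicle array 1 or 2 or estriol array 2 and 5 without vehicle array 3 or estriol array 3, in place of 9. Gadd45g, a stress-induced growth arrest gene, was at 2.96, 3.09 and 3.51 on the vehicle arrays and 7.83, 7.80 and 8.05 on the estriol arrays, a difference of 4.71 (SE 0.48, adjusted p = 1.24e-05), and Gadd45a (2.2) and Gadd45b (1.61) rose too. Cdkn1a was at -1.52, -1.40 and -1.40 on the vehicle arrays and 1.12, 2.31 and 2.11 on the estriol arrays, a difference of 3.29 (SE 0.34, adjusted p = 1.27e-05). The other cyclin-dependent kinase inhibitors Cdkn1b (-1.25†), Cdkn2c (-0.84†) and Cdkn2d (-0.60†) fell, as did Cdk6 (-1.64†‡) and E2f2 (-1.27), while E2f6 (1.19) rose. Ccnd1 was at 1.61, 1.31 and 1.38 on the vehicle arrays and 0.72, 1.02 and 1.16 on the estriol arrays, a difference of -0.46 (SE 0.17, adjusted p = 0.0403, not called on the median scale or without vehicle array 1, 2 or 3 or estriol array 1 or 2), and Ccnd3 (-0.57†) fell while Ccnd2 (0.25) was not called. Of 28 mitotic genes 2 (7.14%) rose and 1 (3.57%) fell. Mad2l1, a spindle checkpoint protein, was at -1.40, -1.31 and -1.58 on the vehicle arrays and 2.46, 3.04 and 2.98 on the estriol arrays, a difference of 4.25 (SE 0.24, adjusted p = 1.68e-07), with its other probe at 4.19. Ccna2 (-0.20), Ccnb1 (-0.11) and Ccnb2 (-0.41) were not called. Among cell death regulators 9 (29%) rose and 10 (32.3%) fell out of 31. Bmf, a BH3-only activator of apoptosis, was at 3.14, 3.14 and 3.28 on the vehicle arrays and -0.20, -0.93 and -0.98 on the estriol arrays, a difference of -3.89 (SE 0.25, adjusted p = 4.13e-07), and its other probes gave -3.71 to -1.30. The BH3-only genes Bbc3 (-1.30) and Bad (-1.11) and the caspases Casp2 (-1.18) and Casp4 (-0.81) fell, and the protective members Bcl2l1 (0.95) and Mcl1 (0.93) rose. Bcl2 (-0.02, with other probes called at -0.54 and -1.42) and Bcl2l2 (0.40) were not called, and Tnfrsf10b (1.53) and Bid (0.93†), which promote death, rose.

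Most genes of the machinery that makes ribosomes rose, while no ribosomal protein gene was called by the probe that represents it. Of the ribosome biogenesis and nucleolar genes 37 of 46 rose (80.4%, against 16.8% of all genes) and none fell, with a median of 0.85. Rrs1, a ribosome assembly factor, was at 0.18, 0.27 and 0.10 on the vehicle arrays and 2.22, 2.29 and 2.53 on the estriol arrays, a difference of 2.16 (SE 0.27, adjusted p = 5.51e-05). Nolc1 (1.88), Ddx21 (1.75), Nop2 (1.74), Rrp12 (1.69) and Gnl3 (1.68) were the next largest and Ncl (0.50) rose. None of the 42 cytosolic ribosomal protein genes was called by that probe in the limma fit, and their median was -0.07; 0 of them had an unadjusted p under 0.05. Falls came to 3 after quantile normalization, in place of 0. Further, dimmer probes were called higher for Rpl11 (1.02), Rpl13 (1.34), Rps18 (0.67) and Rps19 (1.11). Translation initiation factors rose in 20 (51.3%) of 39 cases and fell in 2 (5.13%). Eif1a was at 1.07, 1.14 and 0.92 on the vehicle arrays and 2.83, 2.39 and 2.47 on the estriol arrays, a difference of 1.52 (SE 0.21, adjusted p = 0.000106). Eif4a1 (1.49), the helicase of the cap complex, Eif2s2 (1.40), Eif2s1 (1.11) and Eif4e (1.02) rose, and Eif4ebp1 (-0.68†), which sequesters EIF4E, fell. Of the tRNA synthetases 12 (54.5%) of 22 rose and none fell, and all but Eef1e1 (1.59), an accessory protein of the synthetase complex, rose by less than 2-fold. Members higher numbered 4 without estriol array 2, 5 without estriol array 3, 6 without vehicle array 2 and 7 without vehicle array 1, in place of 12. Falling members numbered 3 after quantile normalization, in place of 0. Amino acid supply genes rose in 8 (30.8%) of 26 cases and fell in 2 (7.69%), with a median of -0.001. Slc7a5, a carrier of large neutral amino acids, was at -0.77, -0.78 and -0.75 on the vehicle arrays and 1.78, 2.12 and 2.2 on the estriol arrays, a difference of 2.80 (SE 0.24, adjusted p = 3.73e-06), and its partner Slc3a2 (1.09) and Mthfd2 (1.87), of the folate cycle, rose.

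Polyamines are needed for growth and their first enzyme is a classical early oestrogen target. Odc1 was at 3.60, 3.67 and 3.90 on the vehicle arrays and 4.81, 4.78 and 4.87 on the estriol arrays, a difference of 1.09 (SE 0.17, adjusted p = 0.000248). Srm (1.51), spermidine synthase, Azin1 (1.35), which shields ODC1 from breakdown, and the transporter Atp13a3 (1.27) rose, while Azin2 (-0.83) and Atp13a2 (-0.83) fell, 7 (43.8%) rises and 3 (18.8%) falls of 16. Sms (0.02) and Sat1 (-0.16) were not called.

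Protein folding genes rose both in the cytosol and in the endoplasmic reticulum. Of the chaperones 23 of 33 rose (69.7%) and none fell, with a median of 0.66. Hsph1 was at 2.22, 2.25 and 2.22 on the vehicle arrays and 3.65, 4.25 and 4.18 on the estriol arrays, a difference of 1.80 (SE 0.21, adjusted p = 3.53e-05). Hspa4l (1.76), Dnajb1 (1.51), Hspb8 (1.30) and Dnaja2 (1.02) followed, and Hspa1a (0.84†) rose. The mitochondrial pair Hspd1 (0.75) and Hspe1 (0.51), which share a bidirectional promoter, rose as well and were named for that promoter. Its Hspe1 window is printed because it holds 2 overlapping matches to the heat shock element, which is GAA, TTC and GAA with any 2 bases between them, in capitals.
Hspe1 (chr1:55087898-55088147, plus strand, matches 89 and 84 bases before the start): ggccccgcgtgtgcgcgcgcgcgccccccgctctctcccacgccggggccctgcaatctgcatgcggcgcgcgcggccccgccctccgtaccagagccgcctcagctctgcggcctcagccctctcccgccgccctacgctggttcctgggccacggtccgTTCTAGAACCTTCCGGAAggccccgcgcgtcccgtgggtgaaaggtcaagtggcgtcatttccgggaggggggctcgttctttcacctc
The element was in the windows of 2 of 28 chaperone genes (7.14%) and of 0.463% of all tested genes. In the endoplasmic reticulum list 20 (62.5%) of 32 rose and 2 (6.25%) fell. Hspa5, the main chaperone of that compartment, was at 3.95, 4.07 and 3.84 on the vehicle arrays and 5.25, 5.51 and 5.46 on the estriol arrays, a difference of 1.45 (SE 0.20, adjusted p = 0.000108). Ppp1r15a (2.22) and Ppp1r15b (1.43), which restore translation, and Hyou1 (1.38‡) rose, Calr (0.71) and Hsp90b1 (0.52) rose by less, and the sensor kinase Eif2ak3 (-0.85) and Ddit3 fell.

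**Figure D5:**
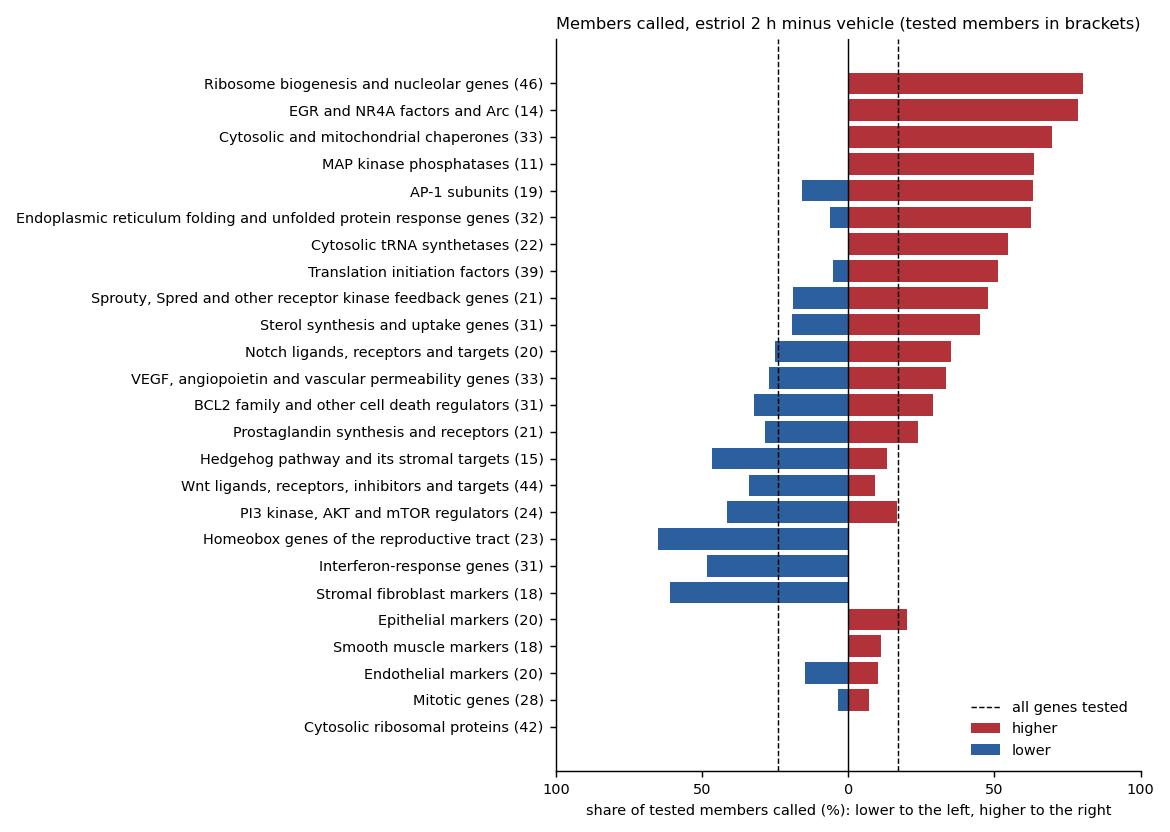
Share of the tested members of 25 gene lists that were called higher (red, to the right) or lower (blue, to the left) at 2 h of estriol against vehicle, in percent, with tested members in brackets; dashed lines mark the shares among all genes, 16.8% higher and 24.0% lower. The ribosome biogenesis bar reaches 80.4% higher, the homeobox bar 65.2% lower, and the ribosomal protein bar is empty.

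Carriers and first enzymes of sugar use were among the metabolic genes that rose. The lactate and pyruvate carrier Slc16a1 was at 1.04, 1.24 and 0.80 on the vehicle arrays and 3.71, 3.65 and 3.48 on the estriol arrays, a difference of 2.59 (SE 0.21, adjusted p = 2.26e-06). Hexokinases Hk2 (2.15) and Hk1 (1.35) and the glucose carriers Slc2a3 (1.80) and Slc2a1 (0.97) rose and the insulin-regulated carrier Slc2a4 (-0.82†) fell, 11 (34.4%) rises and 4 (12.5%) falls of 32. Falls numbered 2 on the median scale and without vehicle array 2 or 3 or estriol array 1, 2 or 3 and 8 after quantile normalization, in place of 4. Sterol synthesis and uptake genes rose in 14 (45.2%) of 31 cases and fell in 6 (19.4%). Members lower numbered 0 on the median scale, 2 without estriol array 2 and 3 without vehicle array 2 or 3, in place of 6. Sqle, which turns squalene into its epoxide, was at -0.02, -0.14 and -0.06 on the vehicle arrays and 1.31, 1.77 and 1.52 on the estriol arrays, a difference of 1.61 (SE 0.29, adjusted p = 0.000789). Idi1 (1.87) rose, and the exporters Abca1 (-0.77†) and Abcg1 (-0.75†) fell. The E-box CACGTG was in the windows of 6 of 22 sterol genes (27.3%) against 9.22% of all tested genes. Of 32 fatty acid genes 3 (9.38%) rose and 2 (6.25%) fell; Pparg, a nuclear receptor, was at -1.48, 0.00 and -2.03 on the vehicle arrays and 2.02, 1.68 and 1.76 on the estriol arrays, a difference of 2.99 (SE 0.43, adjusted p = 0.00017), and Acaca (0.12) and Fasn (0.52) were not called. Rises numbered 5 without vehicle array 2 and 7 on the median scale, in place of 3. Of 35 oxidative phosphorylation subunits 6 (17.1%) rose and none fell. Members higher numbered 3 after quantile normalization and 18 on the median scale, in place of 6.

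Of 22 clock genes 8 (36.4%) rose and 5 (22.7%) fell. Per1 was at 0.62, 1.04 and 1.48 on the vehicle arrays and 1.79, 1.93 and 1.90 on the estriol arrays, a difference of 0.82 (SE 0.19, adjusted p = 0.00428), and Per2 (1.5), Cry2 (1.43) and Bhlhe40 (2.14) rose. Nr1d1, the repressor REV-ERB-alpha, was at 0.96, 1.18 and 1.59 on the vehicle arrays and -0.35, -1.03 and -0.64 on the estriol arrays, a difference of -1.92 (SE 0.23, adjusted p = 4.36e-05), and Bhlhe41 (-1.91), Dbp and Hlf fell. The activators Clock (0.15) and Npas2 (-0.12) were not called. The clock time at which each mouse was injected and killed is not stated in the sources used here, so a difference in clock time between the groups cannot be told apart from the treatment for these genes. Of the retinoid genes 7 (33.3%) of 21 rose and 4 (19%) fell. Falls came to 0 on the median scale, 1 without vehicle array 3 or estriol array 2 or 3 and 2 after quantile normalization, in place of 4. Lrat, which stores retinol as an ester, was at -4.72, -5.08 and -4.31 on the vehicle arrays and -2.44, -2.60 and -2.60 on the estriol arrays, a difference of 2.16 (SE 0.26, adjusted p = 4.82e-05), and Aldh1a2, which makes retinoic acid, at 1.74, 1.98 and 2.63 on the vehicle arrays and 3.76, 3.80 and 3.93 on the estriol arrays, a difference of 1.71 (SE 0.36, adjusted p = 0.0023). Rara (1.47) rose, Crabp2, not well above background on any vehicle array, rose at least 2.78-fold, and Rdh10 (-1.16†‡) and Rarb (-0.89†) fell. Rbp4 (0.24) was not called. Among chromatin modifiers 7 (21.2%) of 33 rose, led by Arid5a (2.34), and 8 (24.2%) fell, led by Arid5b (-1.72‡), Tet1 (-1.16) and Ezh1 (-1.16). The rising members came to 4 without vehicle array 1 or 2 and 13 on the median scale, in place of 7. Falling members numbered 4 on the median scale, in place of 8.

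Keratins changed in few members and by large amounts. Krt86, a hair keratin, was at -4.70, -5.39 and -5.14 on the vehicle arrays and 2.31, 2.49 and 2.50 on the estriol arrays, a difference of 7.51 (SE 1.00, adjusted p = 8.95e-05); its close relative Krt87, at -3.97, -4.81 and -4.92 on the vehicle arrays and 2.35, 2.59 and 2.64 on the estriol arrays, may share transcripts with that probe. Krt4 (3.84), Krt23 (1.36†) and Krt17 (1.17) rose. The main uterine epithelial keratins Krt8 (-0.38), Krt18 (-0.39) and Krt19 (-0.20) were not called, and 4 (25%) of 16 keratins rose and none fell. Of the tissue kallikreins, secreted serine proteases whose genes lie side by side on chromosome 7, 10 (90.9%) of 11 rose, with a median of 5.25, and Klk1b9 (0.95) was not called. With Klk1b21 at the bound given further on, the median is the value of Klk1b26, 5.12. With only the probes well above background on all 6 arrays 6 were called. Klk1 was at -4.54, -4.70 and -5.51 on the vehicle arrays and 1.18, 2.04 and 1.84 on the estriol arrays, a difference of 6.60 (SE 1.28, adjusted p = 0.00137), with its other probe at 3.75. Klk1b4 was at -5.77, -5.99 and -6.95 on the vehicle arrays and -0.57, 0.43 and 0.24 on the estriol arrays, a difference of 6.27 (SE 1.31, adjusted p = 0.0022), and Klk1b5 at -2.51, -3.19 and -3.78 on the vehicle arrays and 3.06, 3.98 and 3.67 on the estriol arrays, a difference of 6.73 (SE 1.24, adjusted p = 0.000961). No vehicle array of the 3 genes reached an estriol array. Klk1b24 (6.93), Klk1b3 (6.09), Klk1b26 (5.12), Klk1b8 (5.03), Klk1b27 (4.86) and Klk1b11 (2.99†) rose as well. Of the vehicle arrays 2 measured Klk1b24 and Klk1b4 above background and 1 measured Klk1b11. Klk1b21, not well above background on any vehicle array, rose at least 30-fold. The windows before Klk1b4 and Klk1b5 are printed to show how alike members of the family are: they were 87.5% identical when aligned, and pairs of the 14 kallikrein windows ranged from 38.6% to 89.7%. Where transcripts are as alike, 1 may reach another's probe, so the count of members is uncertain.
Klk1b4 (chr7:44207183-44207432, plus strand): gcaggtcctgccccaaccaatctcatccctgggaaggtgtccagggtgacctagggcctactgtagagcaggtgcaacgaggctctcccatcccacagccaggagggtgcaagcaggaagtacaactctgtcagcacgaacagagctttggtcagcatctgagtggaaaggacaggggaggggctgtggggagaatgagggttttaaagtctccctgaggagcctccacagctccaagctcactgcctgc
Klk1b5 (chr7:44216224-44216473, plus strand): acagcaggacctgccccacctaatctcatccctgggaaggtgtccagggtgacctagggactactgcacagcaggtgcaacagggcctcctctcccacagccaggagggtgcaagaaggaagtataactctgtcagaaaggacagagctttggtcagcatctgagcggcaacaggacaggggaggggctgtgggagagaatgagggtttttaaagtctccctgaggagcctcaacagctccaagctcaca
Neither window held a match to a motif searched, so neither carries capitals.

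In the adhesion list 9 (26.5%) of 34 rose and 6 (17.6%) fell. Falls numbered 3 on the median scale, in place of 6. Cldn1, a tight junction claudin, was at -0.65, -1.19 and -1.08 on the vehicle arrays and -3.65, -4.56 and -4.55 on the estriol arrays, a difference of -3.28 (SE 0.36, adjusted p = 2.03e-05). Itga1 (-2.63‡), a collagen receptor, and the endothelial Cldn5 (-1.03) fell. Itgb3 (2.16), Itga5 (1.61), Gjb2 (2.00†) and Gja1 (1.37), the gap junction protein of the stroma and muscle, rose, and Sele, an endothelial selectin not well above background on any vehicle array, rose at least 5.65-fold. Cdh1 (-0.68), Cdh2 (-0.11) and Cdh5 (-0.02) were not called. Of the axon guidance and ephrin genes 5 (14.7%) of 34 rose, with Epha2 (2.23), Sema3f (1.75) and Ephb2 (1.62) the largest, and 10 (29.4%) fell, with Epha7 (-2.16‡), Epha4 (-2.15) and Efna1 (-1.55) the largest. Members higher numbered 8 on the median scale, in place of 5.

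Markers of epithelium, smooth muscle and endothelium were mostly not called, while most stromal markers fell. Of 20 epithelial markers 4 (20%) rose and none fell, with a median of -0.06; Epcam (-0.08) was not called and Elf3 (1.90) rose. The count of rises was 2 without vehicle array 2 or 3 or estriol array 1 or 3, in place of 4. The falling members came to 2 without estriol array 1, in place of 0. Their summed level overlapped between the groups, at 7.23 to 7.64 with vehicle and 6.95 to 7.67 with estriol. Of 18 smooth muscle markers 2 (11.1%) rose and none fell, with a median of 0.05. Oxtr, the oxytocin receptor, was at -3.85, -3.03 and -3.27 on the vehicle arrays and 0.58, 0.71 and 0.52 on the estriol arrays, a difference of 3.99 (SE 0.35, adjusted p = 3.71e-06), and Synpo2 (1.15‡), whose other probes gave -0.59 to 0.62, was the other. Acta2 (0.01), Actg2 (0.11) and Myh11 (-0.28) were not called, and the summed level was 9.33 to 9.89 against 9.48 to 9.78. Of 18 stromal markers 11 (61.1%) fell and none rose, with a median of -0.53. Falls came to 6 on the median scale and without vehicle array 1 or estriol array 3 and 7 without estriol array 1, in place of 11. Pdgfra (-0.92‡) and Vim (-0.53†) fell and Dcn (-0.02) was not called, with another probe of Dcn at -3.85. Of 20 endothelial markers 2 (10%) rose and 3 (15%) fell, and Pecam1 (-0.26, with another probe called at -1.83), Cdh5 (-0.02) and Kdr (0.17) were not called. Rises numbered 4 on the median scale, in place of 2. The summed endothelial level was 6.33 to 6.43 with vehicle and 6.16 to 6.24 with estriol. The adipocyte sum ranged more within a group than between groups, at 4.85 to 7.81 and 4.88 to 7.23, with 1 (6.67%) of 15 called higher (2.26 for Ucp1, above background on 1 of the 3 vehicle arrays and chosen after its value was seen). Members higher numbered 3 on the median scale, in place of 1. Of 8 oviduct and ovary markers tested 4 fell and none rose, and their summed level was 1.05 to 1.34 with vehicle and 0.11 to 0.54 with estriol. Of 13 mesothelial and nerve markers 1 (7.69%) rose and 3 (23.1%) fell, with sums of 4.60 to 4.79 and 4.60 to 4.93. The part of such tissue in the values of other genes was not tested.

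Estradiol at 2 h, given at the same dose, was set against estriol directly over the same probes. No probe was called (0.0% of 30295) in the limma fit with Benjamini-Hochberg adjustment, the smallest adjusted p being 0.536, and 992 probes had an unadjusted p under 0.05. With array weights 8 probes were called, and with only the groups compared in the fit 1. The lack of a call is no sign that the compounds act alike. Intervals (95%) that stayed inside a 2-fold difference in both directions were found for 82.7% of probes, and those of the rest reached further. For Fos the estradiol arrays were at 2.69, 2.96 and 2.78, estriol minus estradiol being -0.15 (95% interval -1.05 to 0.74). For Hoxa10 they were at 1.37, 1.40 and 1.47, with -0.18 (-0.50 to 0.15), and for Klk1b5 at 3.66, 4.52 and 3.68, with -0.38 (-3.07 to 2.31). The interval was narrow for Hoxa10 and wide for Klk1b5. The smallest unadjusted p-values belonged to Cysltr2 (1.65), a leukotriene receptor, Sertad3 (0.57) and Adgb (1.95), higher with estriol, and to Slc43a2 (-0.84), an amino acid carrier, Foxo3 (-0.62) and Rrm2 (-0.57), lower with estriol; none passed the adjusted threshold. Cysltr2 was at -2.97, -3.68 and -2.93 with estriol, -4.87, -5.23 and -4.45 with estradiol and -5.40, -4.73 and -4.99 with vehicle.

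Estriol at 24 h was set against estriol at 2 h, a comparison that shares the estriol 2 h arrays with the one against vehicle. Over all probes 14944 (49.3%) were called, 8134 higher and 6810 lower at 24 h, and over genes 9944 (49.9%), 29.8% higher and 20.1% lower. Those arrays enter both differences with opposite sign, so the values are set side by side and no overlap of the calls is counted. Arc stood at -2.74, -4.34 and -3.23 on the estriol 24 h arrays against -3.20, -3.09 and -3.02 with vehicle, a difference from 2 h of -6.49 (adjusted p = 5.4e-08). Genes were ranked here only if called in both comparisons, with the 2 h and 24 h arrays apart, under the conditions of the largest rises and falls. Such a choice favours genes that reversed and leaves out genes not called against vehicle at 2 h. Among the genes so ranked the largest fitted differences downward were Trim15 (-6.64), Egr4 (-6.54), Arc (-6.49), Myh7 (-6.43), Has1 (-6.16) and Gdf15 (-5.95). The largest upward were Rnf186 (5.20), Trpv6 (4.35), Hcar1 (4.33), Bmf (4.21), Zfp750 (4.08) and Fgf20 (3.67). Rnf186 stood at -1.25, 0.72 and -2.65 at 24 h, above -3.01, -3.06 and -2.89 with vehicle, and Trpv6 at 1.05, 3.47 and 0.45, above -0.63, -0.59 and 0.00. Homeobox genes were higher at 24 h than at 2 h in 16 of 23 cases, and the interferon-response genes in 25 of 31. Ribosome biogenesis genes were lower at 24 h in 37 of 46 cases. Of the 11 kallikreins tested 2 were lower at 24 h than at 2 h and none was higher. Klk1 (0.03), Klk1b4 (0.04), Klk1b3 (-0.07) and Klk1b5 (-0.12), which rose at 2 h, were among those not called between the times. Their 24 h arrays spread widely, Klk1 being at -1.57, 0.87 and 5.84.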

How the data were processed

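RNA of whole uterus was hybridised to 1-colour Agilent arrays, labelled with Cy3 per the labels' protocols. The authors deposited intensity values per spot, per the file headers of Agilent Feature Extraction (9.5 in the submitters' processing notes), already background-subtracted and not scaled between arrays. The coordinates in those files are of build mm7 and none is printed. From them log2 levels were computed as the signal of each non-control probe minus the 75th percentile of its array, with spots of 1 probe averaged and outlier spots left out. The 30295 probes well above background on all 3 vehicle or all 3 estriol 2 h arrays were fitted over all 15 arrays and 5 groups with limma 3.58.1 in R 4.3.3, with Benjamini-Hochberg adjustment over all probes tested and a threshold of 0.05. The number of arrays limits the precision.

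The representing probe of a gene is the tested probe with the highest mean over the 6 arrays, and 15569 of the 19934 genes carry a RefSeq symbol. Genes named are the 20 largest rises and falls, up to 6 of each per list among those called, the first 3 members of each list, lists of 20 or fewer whole, classical oestrogen targets, and the extremes of the comparisons with estradiol and with 24 h. The 20 largest and the extremes with 24 h were ranked under the conditions given with them. A named gene outside these groups is said to be so where it occurs, except further members of a list given with it. Members and lists were chosen with earlier results of these data known. Deviations from the group means correlated at 0.00, 0.0997 and 0.216 between same-numbered arrays and at -0.202 to 0.0905 between the others. The numbers were not used as pairs in the main fit, and a fit with them as blocks is among the alternatives. Alternatives changed the scale, background correction, filter, probe summary, variance model, threshold and blocks, or left out 1 array. Some members of the lists are counted in them and not reported by name here or drawn.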

Additional observations from a re-analysis of the deposited data

Results flagged for a closer look

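The difference between the times was tested directly for estriol. In the limma fit with Benjamini-Hochberg adjustment 14944 probes differed between estriol 24 h and estriol 2 h, 8134 higher and 6810 lower at 24 h. The vehicle arrays are common to both times, so this is also the test of whether the difference from vehicle was the same at each time.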

How the results depend on the processing

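The count of 12228 probes called between estriol 2 h and vehicle lay between 10336 (slide as a random block) and 17807 (array weights) under the other fits over probes, except at the stricter thresholds, with 8021 at an adjusted p under 0.01 and 5097 at 2-fold or more. Per gene 8191 (1 probe per gene) and 8372 (mean of the probes) were called. With 1 array left out it ranged from 9880 to 11018. The replicate block gave 11667 calls, 0 against estradiol and 14466 between the times, and within the first scan day 12332 were called. Against estradiol 0 probes were called except for 8 with array weights and 1 with only the groups compared, and 0 to 1 with an array left out. Between 24 h and 2 h the 14944 calls became 6171 at 2-fold or more and 10153 at an adjusted p under 0.01. They numbered 10973 with only the groups compared and ranged from 11947 to 14636 with 1 array left out. With the array median as the scale 6573 were higher and 7780 lower. Of 406 called genes named, 403 kept their sign under every setting, 47 lost the call without at least 1 array and 53 in at least 1 other fit. Averaging a gene's probes reversed Angpt4 (0.87), Mlx (-0.12) and Sox11 (0.50), whose probes disagree. The causes were not tested. A dim probe's difference is limited by its signal over background.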
